A study of Homo sapiens with 18 samples.

Results

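The genes described here are the splicing regulators whose symbols name them as serine/arginine-rich splicing factors (SRSF) or heterogeneous nuclear ribonucleoproteins (HNRNP), together with the SR-like proteins TRA2A and TRA2B and the kinases CLK1 to CLK4. Among the 58825 genes of the count tables, 44 protein-coding genes met this rule: 12 SR proteins, 2 TRA2 genes, 4 CLK kinases and 26 hnRNPs. A further 123 genes of the same name patterns are not protein coding, mostly pseudogenes, and were left out. OVCAR-3, an established cell line used as a model of high-grade serous ovarian carcinoma, was treated for 4 or 24 h with the vehicle DMSO, with 1 µM i-BET858 or with 1 µM i-BET151, giving 6 groups of 3 replicate libraries of polyadenylated RNA and 18 libraries in all. Both drugs are inhibitors of the BET bromodomain proteins, and the study describes i-BET858 as bivalent. All 6 groups are the same cell line, and the study calls the 3 replicates of a group biological. The labels do not say whether they were grown as separate cultures, and the p-values measure the spread between these libraries.

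SR proteins bind enhancer sequences in exons through an RNA recognition motif and recruit the spliceosome through a domain rich in arginine-serine dipeptides, whereas hnRNPs coat nascent transcripts and often repress the use of nearby splice sites. CLK kinases phosphorylate the arginine-serine domains, which releases SR proteins from nuclear speckles and changes which exons they act on. Many of these genes control their own transcript through a poison exon or a retained intron that sends the RNA to nonsense-mediated decay or holds it in the nucleus. The deposited counts are sums over all isoforms of a gene, so a change in a gene's count cannot be split here into productive and unproductive transcripts.

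The members were among the more abundant transcripts of the tables. Their median average level was 7.33 on the log2 CPM scale (CPM being counts scaled to library size with edgeR's TMM factors) among the members tested at 4 h, against 3.75 over all genes tested. Per kilobase of the canonical transcript, HNRNPA2B1 stood highest in the DMSO libraries at 4 h with 335.0 RPKM ± 73.3 (SD, n = 3), followed by HNRNPK at 321.0 ± 24.3 and HNRNPA1 at 302.0 ± 38.3, 3 neighbours whose values overlap within their spread. Among SR proteins the highest were SRSF9 at 112.0 RPKM ± 8.5, SRSF2 at 110.0 ± 21.5 and SRSF3 at 105.0 ± 14.3, which also overlap within their SD. CLK2 at 21.0 RPKM ± 4.56, CLK3 at 14.7 ± 0.976 and CLK1 at 13.5 ± 4.52 lay far below these, and CLK4 at 3.77 ± 1.13 was the lowest of the kinases. SRSF12 was the lowest member with a measurable level, at 1.08 RPKM ± 0.168. HNRNPCL1 to HNRNPCL4, close relatives of HNRNPC that lie in a cluster on chromosome 1, had 0 to 10 counts in every library and were too low to be tested. HNRNPCL3 and HNRNPCL4 had 0 counts in all 18 libraries, where the level of 3 counts, the limit that a count of 0 allows, was 0.0653 to 0.109 CPM.

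Total counts ran from 27323969 to 46299994 per library, which leaves counting error small for most of the 40 tested members. The exceptions are low genes such as SRSF12, with 36 to 180 counts in a library, and HNRNPA1L2, with 74 to 208. The replicate 3 libraries stood apart in all 6 groups: 17817 to 20642 genes had a count there, against 23674 to 24947 in the replicate 1 and 2 libraries. The members' summed CPM, given as a percentage of the TMM-scaled library size, was also lowest in replicate 3 of every group. Examples are 1.065% against 1.311% and 1.231% in DMSO at 4 h and 0.878% against 1.101% and 1.164% with i-BET858 at 24 h. Because same-numbered libraries deviated together, the counts of calls below are also given with the replicate number as a block in the fit. The block takes same-numbered libraries as paired, an assumption that was not tested apart from the shift of replicate 3. Calls are without the block unless it is named. All 8 epithelial and ovarian markers were present, with PAX8 at 387 to 612 CPM and WT1 at 102 to 180 CPM. Their summed level moved with treatment, from 8437 to 9994 CPM in the 6 DMSO libraries to 11340 to 11940 CPM with i-BET858 at 4 h and 6621 to 7015 CPM at 24 h, where KRT7, KRT8 and KRT18 fell and CDH1 rose. With i-BET151 it was 9522 to 10110 CPM at 4 h and 6648 to 7171 CPM at 24 h, and any part of this shift in the members' changes was not tested. A list of 8 markers of blood, endothelial and stromal cells summed to 23.42 to 52.82 CPM, most of it COL1A1 at 21.1 to 46.7 CPM, while PTPRC and CD3E, which define leukocytes, stayed at or below 0.556 and 0.0364 CPM.

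**Figure D1:**
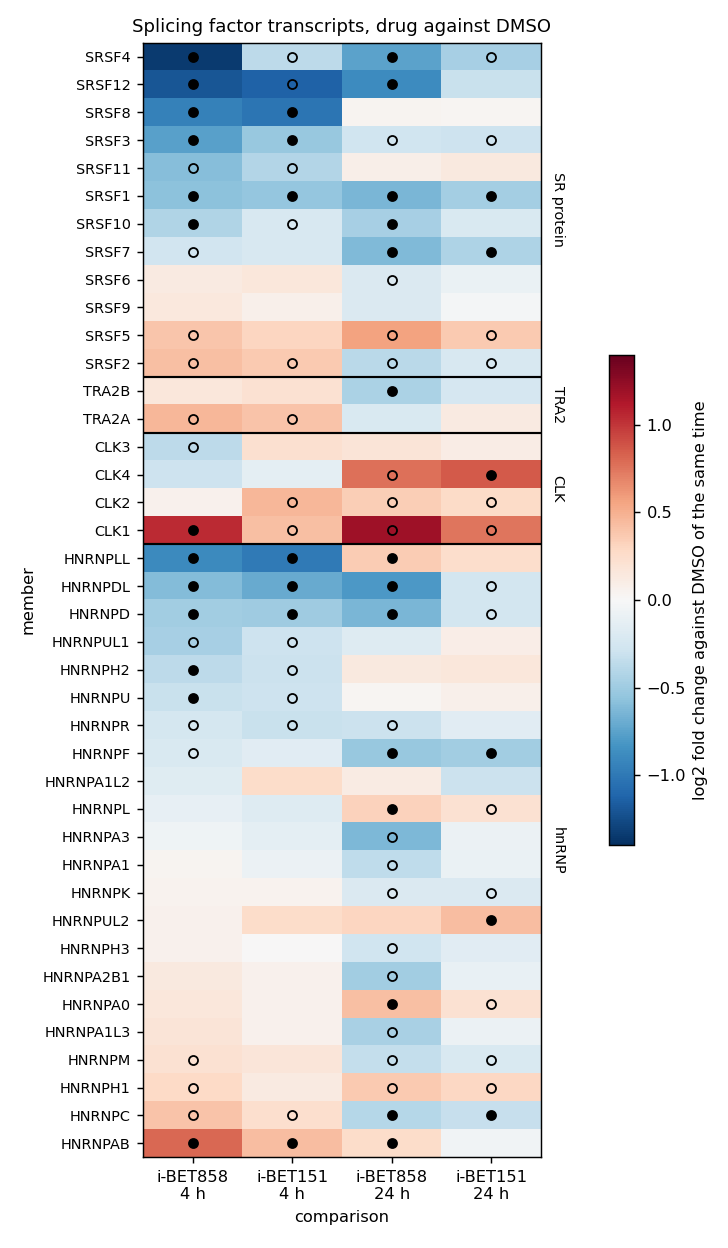
Log2 fold change against DMSO of the same time for the 40 tested members (rows, grouped by role and ordered by the i-BET858 value at 4 h) in 4 comparisons (columns). Filled circles mark members called at an adjusted p under 0.05 and open circles those called only with the replicate block. Blue fills most of the SR protein rows at 4 h, with SRSF4 at -1.34, and the CLK rows are red at 24 h with both drugs.

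The sequence upstream of the start site is shown for 4 members that stand for the main patterns: SRSF8 and HNRNPLL, which fell at 4 h and not at 24 h, SRSF4, which differed between the drugs, and CLK1, a kinase that rose at 4 h. Each run is the 250 bases before the RefSeq start (GRCh38.p14), 5′ to 3′ on the gene's strand, and capitals mark matches on either strand to 6 motifs. These were the promoter box spelled TATAAA, the box named CCAAT, the Sp1-type box GGGCGG (called the GC box here), the bHLH factor element CACGTG, the ETS family element CCGGAAG and the core TGACG of the cAMP response element.
SRSF8, chr11:95066669-95066918, plus strand: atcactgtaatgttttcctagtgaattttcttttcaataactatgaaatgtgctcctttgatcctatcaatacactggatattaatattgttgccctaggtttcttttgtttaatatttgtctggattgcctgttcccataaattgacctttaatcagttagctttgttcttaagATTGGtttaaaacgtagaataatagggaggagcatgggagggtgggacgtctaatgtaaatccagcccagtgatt
HNRNPLL, chr2:38602929-38603178, minus strand: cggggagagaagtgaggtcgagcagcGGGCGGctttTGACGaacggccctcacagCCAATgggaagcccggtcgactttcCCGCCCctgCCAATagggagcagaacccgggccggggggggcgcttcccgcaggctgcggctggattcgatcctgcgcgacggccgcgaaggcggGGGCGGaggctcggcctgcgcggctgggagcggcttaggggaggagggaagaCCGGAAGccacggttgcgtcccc
SRSF4, chr1:29181901-29182150, minus strand: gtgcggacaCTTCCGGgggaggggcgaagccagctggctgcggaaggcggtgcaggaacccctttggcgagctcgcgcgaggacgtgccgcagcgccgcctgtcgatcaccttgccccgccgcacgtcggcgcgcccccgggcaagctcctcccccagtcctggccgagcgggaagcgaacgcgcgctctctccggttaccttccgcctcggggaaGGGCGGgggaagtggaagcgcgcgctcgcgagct
CLK1, chr2:200864659-200864908, minus strand: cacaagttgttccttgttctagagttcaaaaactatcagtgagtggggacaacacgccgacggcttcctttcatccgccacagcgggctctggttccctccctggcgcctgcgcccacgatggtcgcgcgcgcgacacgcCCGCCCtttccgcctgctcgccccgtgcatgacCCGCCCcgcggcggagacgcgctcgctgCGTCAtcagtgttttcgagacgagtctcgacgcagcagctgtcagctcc

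These 4 windows differ in make-up. The SRSF8 window is 35.2% G or C with 2 CpG dinucleotides and 1 match, a CCAAT box read on the other strand, whereas the HNRNPLL window is 71.6% G or C with 29 CpG and 7 matches, among them 3 GC boxes and 2 CCAAT boxes. SRSF4, at 73.6%, holds 36 CpG with 1 ETS site and 1 GC box, and CLK1, at 64.4%, holds 30 CpG with 2 GC boxes and 1 cAMP response core. A window was found for 39 members, 36 of them tested; where a gene had several RefSeq starts, the one nearest to its canonical GENCODE start was used, which for HNRNPA1L2 lay 24906 bases from it. The median tested member had 65.0% G or C and 25.0 CpG, against 58.0% and 11 over all 35116 windows of the same length. Unlike the members' windows, those were not limited to 1 start per gene or to tested genes. TGACG was present in 58.3% of the members' windows and 21.2% of all windows, CACGTG in 19.4% and 6.3%, GGGCGG in 69.4% and 42.6%, CCAAT in 47.2% and 32.0%, TATAAA in 16.7% and 10.7% and CCGGAAG in 13.9% and 8.5%. A match describes letters only, matches may overlap one another, and the part of G and C content in these shares was not tested.

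After 4 h of i-BET858, 11 of the 40 tested members fell and 2 rose (edgeR's quasi-likelihood test, Benjamini-Hochberg adjusted p under 0.05 over all 17192 genes tested). The share of members that fell was 27.5%, against 16.3% of all genes, and the share that rose was 5%, against 14.5%. SR proteins made up 6 of the 11 falls: of 12 SR proteins, 6 fell, none rose, and the median log2 fold change was -0.50, against 0.02 over all genes. By contrast, 5 of 22 hnRNPs fell and 1 rose, with a median of -0.01. In 3 called members, the falls of SRSF4 and SRSF12 and the rise of CLK1, the change was at least 2-fold, as it was in 14.1% of all genes. Since these are counts of bulk RNA, fewer cells of a type and less RNA per cell cannot be told apart. With the replicate block the calls were 17 lower and 8 higher, or 62.5% of the members against 45.4% of all genes. The block called 8 SR proteins lower and 2 higher, SRSF2 and SRSF5 (adjusted p = 0.0101 and 0.0308), and 8 hnRNPs lower and 4 higher.

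SRSF4 (chr1:29147743-29181900, minus strand), an SR protein with an unusually long arginine-serine domain, showed the largest fall. Its level in DMSO at 4 h was 64.3, 66.6 and 50.9 CPM in replicates 1, 2 and 3, and with i-BET858 it was 27, 25 and 19.4 CPM. Every treated library lay below every DMSO library, and the log2 fold change was -1.34 (SE 0.17, edgeR adjusted p = 0.000131). i-BET151 gave 47.3, 53.3 and 41.4 CPM at the same time, all above the i-BET858 libraries and with 1 library inside the DMSO range, at a log2 fold change of -0.36 (SE 0.16, adjusted p = 0.169, and 0.0139 with the block).

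SRSF8 (chr11:95066919-95071225, plus strand) is a retrotransposed relative of SRSF2, and its annotated exons cover the whole 4307 bases of the gene. Reads that fit both genes may be lost or split by the counting, so its level is less certain than that of the other SR proteins. It measured 45.4, 44.9 and 46.7 CPM in DMSO at 4 h, 22.9, 22.7 and 25.1 CPM with i-BET858 and 22.6, 23.1 and 21.7 CPM with i-BET151. Both drugs brought all 3 libraries to about the same level without overlap with DMSO, at log2 fold changes of -0.95 (SE 0.12, adjusted p = 0.000133) and -1.02 (SE 0.12, adjusted p = 0.000224). SRSF2 itself had a log2 fold change of 0.42 (SE 0.29) with i-BET858 at 4 h, which passed the test only with the block, and it also overlaps MFSD11 on the opposite strand.

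SRSF12, a relative of the splicing repressor SRSF10, was near the lower end of the range, at 3.26, 4.46 and 3.92 CPM in DMSO at 4 h and 2.26, 1.58 and 1.25 CPM with i-BET858. The groups did not overlap, and the log2 fold change was -1.19 (SE 0.38, adjusted p = 0.0344). i-BET151 gave 1.67, 2.65 and 1.01 CPM, also without overlap, but the fold change of -1.13 (SE 0.38) missed the threshold at an adjusted p of 0.0669 (0.0119 with the block). SRSF10, which represses splicing when dephosphorylated, fell with i-BET858 by 0.42 on the log2 scale (SE 0.13, adjusted p = 0.0339).

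SRSF1, the founding member of the family, was called in all 4 comparisons with DMSO, and without the block no other member was. With the block SRSF3, SRSF4, HNRNPD and HNRNPDL were also lower in all 4, CLK1 was higher in all 4, and SRSF2 and HNRNPC were called in all 4, higher at 4 h and lower at 24 h with both drugs. In the DMSO libraries at 4 h SRSF1 measured 97.8, 111 and 84.4 CPM, with i-BET858 64.1, 67 and 64.6 CPM and with i-BET151 66.9, 81.7 and 53.5 CPM. At 24 h the values were 109, 109 and 95.9 CPM in DMSO, 71.6, 73.6 and 61.5 CPM with i-BET858 and 82, 81.4 and 65.9 CPM with i-BET151. In each comparison all treated libraries lay below all DMSO libraries, and the log2 fold changes were -0.58 (SE 0.16), -0.54 (SE 0.16), -0.64 (SE 0.12) and -0.48 (SE 0.11), with adjusted p = 0.0167, 0.0397, 0.00111 and 0.00839. The call with i-BET151 at 4 h was lost in 6 of 9 fits that left out a library. Its call with i-BET858 at 4 h was lost in 2 of 9. SRSF1 shares 2330 exonic bases with 2 unnamed genes, one on each strand.

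SRSF3, the smallest SR protein, with roles in mRNA export and polyadenylation site choice, measured 515, 419 and 403 CPM in DMSO at 4 h, 312, 232 and 245 CPM with i-BET858 and 323, 327 and 275 CPM with i-BET151. Neither drug's libraries overlapped with DMSO, and the log2 fold changes were -0.76 (SE 0.14, adjusted p = 0.0019) and -0.54 (SE 0.14, adjusted p = 0.0244). At 24 h they were -0.28 (SE 0.13) and -0.29 (SE 0.13) and passed the test only with the block (adjusted p = 0.0214 and 0.0205). SRSF2, SRSF5, SRSF6, SRSF9 and SRSF11 were called in none of the 4 comparisons with DMSO without the block. SRSF11, which contacts the 3′ splice site factor U2AF, had a log2 fold change of -0.595 with i-BET858 at 4 h but an SE of 0.28, and its DMSO libraries alone ranged from 98.7 to 172 CPM. The block called it lower (adjusted p = 0.000566).

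**Figure D2:**
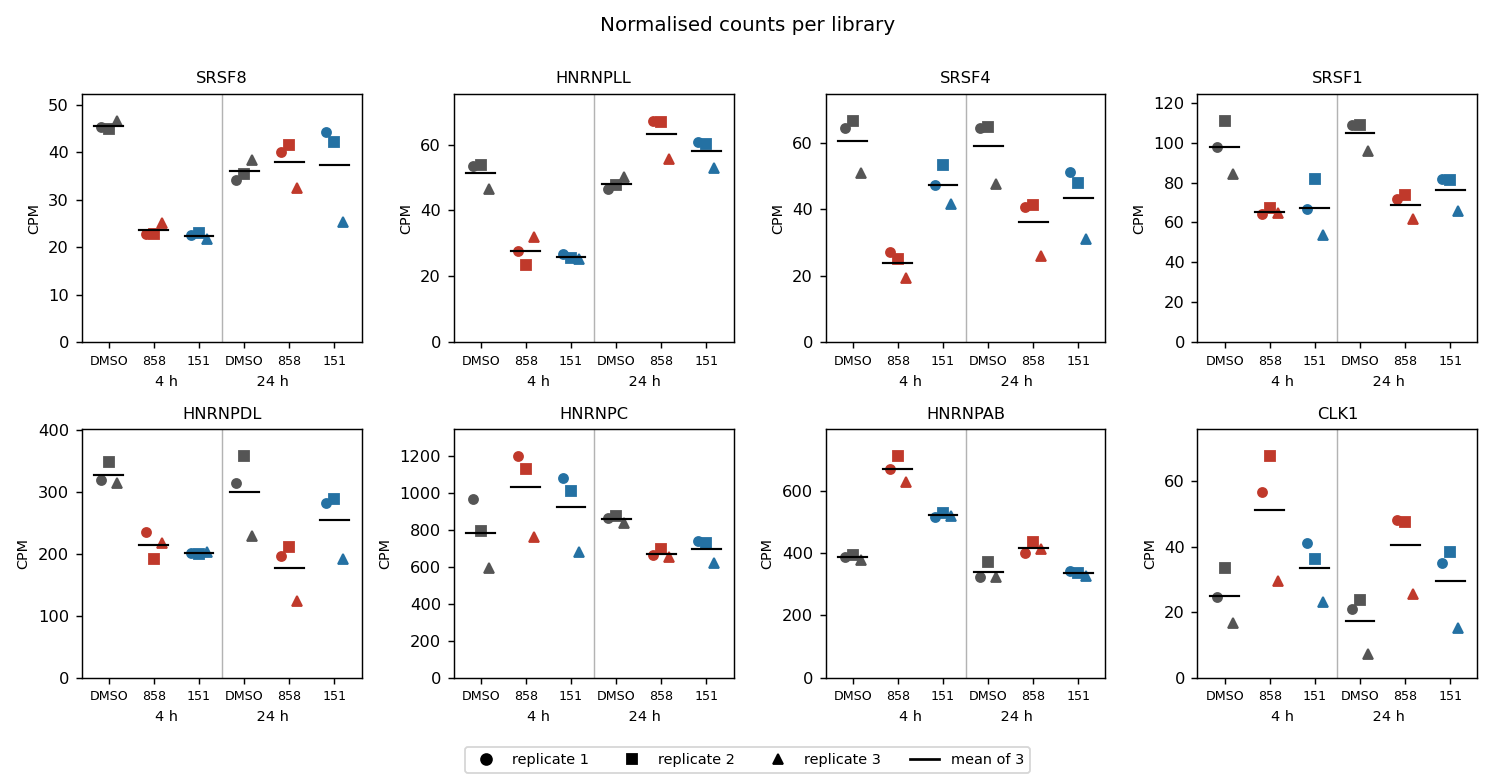
Normalised counts (CPM, TMM-scaled) of 8 members in the 18 libraries; each panel runs from DMSO to i-BET858 (858) to i-BET151 (151) at 4 h and then at 24 h, symbols give the replicate number and bars the mean of 3. SRSF8 and HNRNPLL drop at 4 h with both drugs and lie at or above DMSO at 24 h in most libraries, and CLK1 in replicate 3 lies below replicates 1 and 2 in every group.

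HNRNPLL (chr2:38561969-38603586, minus strand), a paralogue of HNRNPL known for regulating exon skipping in lymphocytes, fell at 4 h with both drugs. It measured 53.4, 53.8 and 46.6 CPM in DMSO, 27.7, 23.3 and 31.9 CPM with i-BET858 and 26.8, 25.6 and 25.4 CPM with i-BET151. No library of either drug reached the DMSO range, and the log2 fold changes were -0.89 (SE 0.14, adjusted p = 0.000704) and -0.99 (SE 0.14, adjusted p = 0.000893).

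HNRNPD, which binds AU-rich elements and affects mRNA decay, and its paralogue HNRNPDL lie 48.1 kb apart on chromosome 4 and fell together at 4 h. HNRNPDL measured 319, 349 and 314 CPM in DMSO, 236, 192 and 217 CPM with i-BET858 and 202, 200 and 203 CPM with i-BET151, with log2 fold changes of -0.60 (SE 0.11, adjusted p = 0.00119) and -0.70 (SE 0.11, adjusted p = 0.00106). HNRNPD measured 521 to 647 CPM in DMSO and 363 to 457 CPM over both drugs, with log2 fold changes of -0.48 and -0.50 (SE 0.12 each, adjusted p = 0.009 and 0.0142). In both genes the treated libraries lay below all DMSO libraries at 4 h. With i-BET858, HNRNPH2, an hnRNP that binds runs of G, fell by 0.37 on the log2 scale (adjusted p = 0.0294) and HNRNPU, the scaffold attachment factor, by 0.32 (adjusted p = 0.0263). With i-BET151 their log2 fold changes were -0.30 and -0.29, past the threshold only with the block (adjusted p = 0.0222 and 0.00828), and the direct differences between the drugs were -0.06 and -0.02. HNRNPU shares 4281 exonic bases with genes on the opposite strand, COX20 among them, and HNRNPH2 overlaps the readthrough gene RPL36A-HNRNPH2.

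HNRNPAB (chr5:178204533-178211163, plus strand), an hnRNP of the A/B family, was the hnRNP that rose at 4 h. Its level was 387, 395 and 379 CPM in DMSO, 672, 713 and 631 CPM with i-BET858 and 517, 529 and 521 CPM with i-BET151. The 3 groups did not overlap, and the log2 fold changes against DMSO were 0.80 (SE 0.09, adjusted p = 5.4e-05) and 0.43 (SE 0.09, adjusted p = 0.00661).

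With i-BET151 at 4 h, 6 members fell (15% against 8.43% of all genes) and 1 rose (2.5% against 7.81%). All 7 were also called with i-BET858 in the same direction: SRSF1, SRSF3, SRSF8, HNRNPD, HNRNPDL and HNRNPLL fell and HNRNPAB rose. These 2 comparisons share the same DMSO libraries, so their match is not independent, and the matching share over all genes was not computed. SRSF8 was the 1 called member past 2-fold, against 7.1% of all genes, and the block gave 14 lower and 6 higher, 50% of the members against 32.7% of all genes.

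Set directly against each other at 4 h, the drugs differed in 1 member, or 2.5%, against 0.971% of all genes. That member was SRSF4, lower with i-BET858 by 0.985 on the log2 scale (SE 0.17, 95% interval -1.35 to -0.62, adjusted p = 0.0289) with no overlap between the groups. Its call was lost in the fit of these 2 groups alone and in 7 of 9 fits that left out a library. The remaining 39 members missed the threshold, with a median 95% interval of 0.34 to either side on the log2 scale. Differences larger than that also missed the threshold, such as that of CLK3 at -0.59 (95% interval -0.89 to -0.29, adjusted p = 0.0678). The interval for SRSF8 ran from -0.18 to 0.33 and that for HNRNPLL from -0.21 to 0.41. For HNRNPAB the difference was 0.37 (95% interval 0.18 to 0.56, adjusted p = 0.0728). With the block, CLK1 and HNRNPAB were higher with i-BET858 than with i-BET151 and CLK2, CLK3 and SRSF4 lower, 12.5% of members against 9.63% of all genes. At 24 h no member differed by edgeR (0.21% of all genes), 5 had an unadjusted p under 0.05, DESeq2 called 1, and the block called 6 (15% against 4.37%), with HNRNPAB higher and HNRNPA1L3, HNRNPA2B1, HNRNPA3, HNRNPD and HNRNPDL lower with i-BET858.

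**Figure D3:**
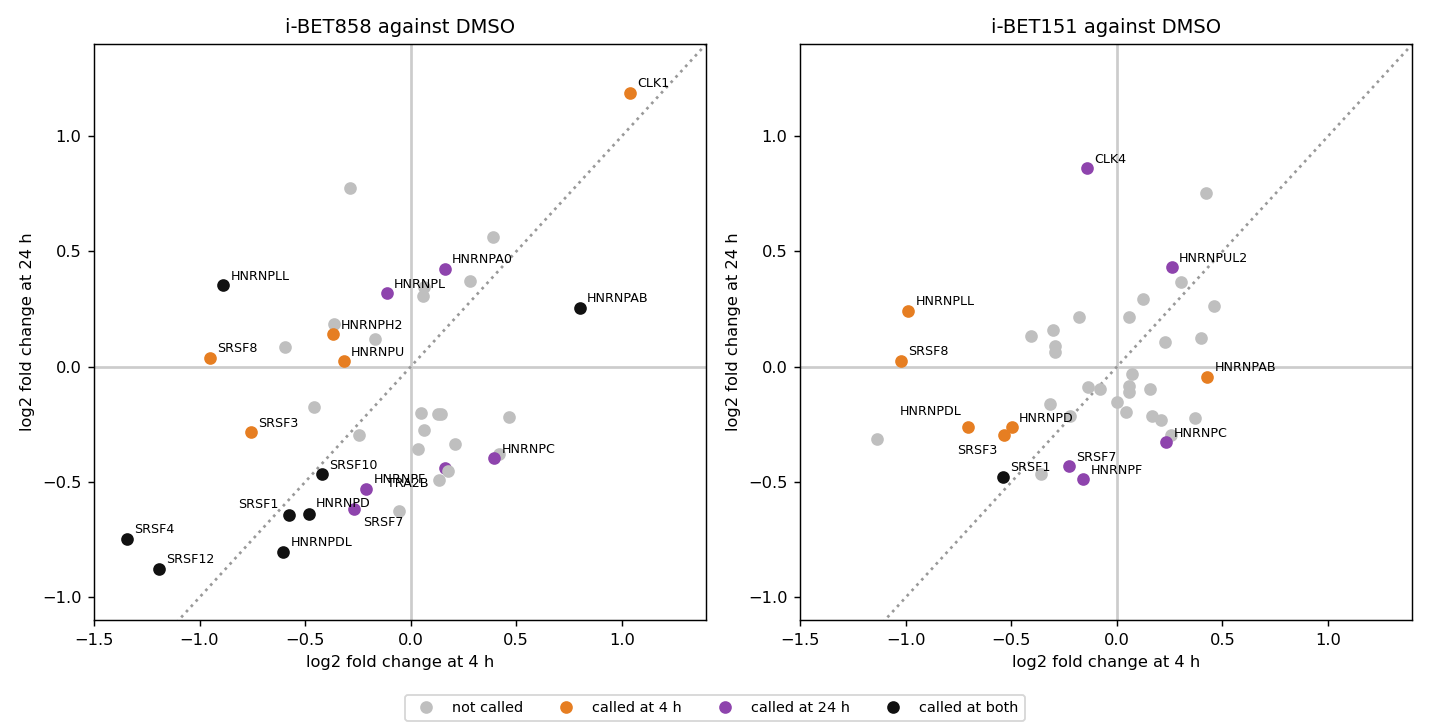
Log2 fold change against DMSO at 4 h (x) and 24 h (y) for the 40 tested members, i-BET858 at left and i-BET151 at right; colour shows at which time a member was called and the dotted line marks equal change. SRSF8 and HNRNPLL lie far left at or above 0 on the y axis with both drugs, at -0.95 and -0.89 on the x axis with i-BET858.

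At 24 h of i-BET858, 10 members fell (25% against 21.3% of all genes) and 4 rose (10% against 20.5%), and no called change reached 2-fold, against 18.8% of all genes. The share that fell is close to the background at this time. Without the block, SR proteins had 5 falls of 12 and no rise, with a median log2 fold change of -0.33, and the 22 hnRNPs had 4 rises and 4 falls. With the block, 21 members fell and 9 rose, 75% against 52% of all genes, among them 8 SR proteins lower and 1 higher and 12 hnRNPs lower and 5 higher. Of the 11 members that fell at 4 h, 6 also fell at 24 h: SRSF1, SRSF4, SRSF10, SRSF12, HNRNPD and HNRNPDL. The matching share among all genes that fell at 4 h was not computed. SRSF7, TRA2B, HNRNPC and HNRNPF were called lower at 24 h and not at 4 h, where the block called SRSF7 and HNRNPF lower too.

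Among the members that fell at both times, SRSF12 measured 4.76, 4.51 and 3.76 CPM in DMSO at 24 h and 2.72, 2.28 and 2.28 CPM with i-BET858, a log2 fold change of -0.88 (SE 0.24, adjusted p = 0.0142). HNRNPDL measured 315, 358 and 229 CPM in DMSO and 196, 211 and 123 CPM with i-BET858, a log2 fold change of -0.80 (SE 0.23, adjusted p = 0.0149). SRSF4 measured 64.3, 64.8 and 47.6 CPM in DMSO and 40.7, 41.3 and 26 CPM with i-BET858, a log2 fold change of -0.75 (SE 0.22, adjusted p = 0.0182). In all 3 genes every treated library lay below every DMSO library, and replicate 3 was lowest in its DMSO group.

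SRSF7, an SR protein with a zinc knuckle that also serves mRNA export, fell at 24 h with i-BET858 by 0.62 on the log2 scale (SE 0.14, adjusted p = 0.00473) and with i-BET151 by 0.43 (SE 0.14, adjusted p = 0.0358). HNRNPF, which binds runs of G, measured 420, 431 and 445 CPM in DMSO at 24 h, 304, 309 and 311 CPM with i-BET858 and 321, 312 and 307 CPM with i-BET151. Its replicates were tight, and the log2 fold changes were -0.53 and -0.49 (SE 0.08 each, adjusted p = 0.000371 and 0.000933). At 4 h they were -0.21 and -0.16 and did not pass the test without the block, which called the i-BET858 value (adjusted p = 0.019).

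The 4 rises at 24 h with i-BET858 were all hnRNPs. HNRNPA0, which binds AU-rich elements, measured 410, 423 and 481 CPM in DMSO and 598, 613 and 604 CPM with i-BET858, a log2 fold change of 0.43 (SE 0.10, adjusted p = 0.00503). HNRNPL, which binds CA repeats, measured 290, 305 and 317 CPM in DMSO and 395, 395 and 382 CPM with i-BET858, a log2 fold change of 0.32 (SE 0.09, adjusted p = 0.0111). The others were HNRNPLL and HNRNPAB, and in all 4 genes each treated library lay above each DMSO library.

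With i-BET151 at 24 h, 4 members fell (10% against 16.6% of all genes) and 2 rose (5% against 17.2%), fewer than the background in both directions. SRSF1, SRSF7, HNRNPC and HNRNPF fell, as they did with i-BET858 against the same DMSO libraries. CLK4 and HNRNPUL2, a relative of HNRNPU, rose with i-BET151 and missed the threshold with i-BET858. HNRNPUL2 had a log2 fold change of 0.43 (SE 0.14, adjusted p = 0.0345) with i-BET151 and 0.305 (adjusted p = 0.105) with i-BET858, and the difference of i-BET858 from i-BET151 was -0.13 (95% interval -0.43 to 0.18, adjusted p = 0.838). Its call was lost with replicates 1 and 2 only, at 0.217 (adjusted p = 0.0987), when counts were scaled by library totals and in the fit of these 2 groups alone. The gene shares 2391 exonic bases with the readthrough gene HNRNPUL2-BSCL2. No called member reached 2-fold, against 13.7% of all genes, and the block gave 11 lower and 8 higher, 47.5% against 45.9% of all genes.

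The change of a drug's effect between 4 and 24 h was tested in a single fit of all 18 libraries as an interaction. For i-BET858, 5 members changed (3 towards higher, 2 towards lower), or 12.5%, against 27.2% of all genes, and for i-BET151 3 members (7.5% against 13.8%). The block raised these to 20 members (50% against 38.3%) and 13 members (32.5% against 25.2%). The i-BET858 count was also higher without a filter on low counts or with a stricter one, and it moved with single libraries left out. In both drugs HNRNPLL and SRSF8 moved towards higher and HNRNPAB towards lower.

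HNRNPLL reversed its direction with i-BET858. At 24 h it measured 46.6, 47.7 and 50.2 CPM in DMSO, 67.3, 66.8 and 55.5 CPM with i-BET858 and 60.7, 60.3 and 52.8 CPM with i-BET151. Every treated library lay above every DMSO library, with log2 fold changes of 0.35 (SE 0.11, adjusted p = 0.0221) and 0.24 (SE 0.11, adjusted p = 0.108). The change of effect from 4 to 24 h was 1.28 with i-BET858 (SE 0.17, adjusted p = 3.84e-05) and 1.25 with i-BET151 (SE 0.17, adjusted p = 0.000188).

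SRSF8 at 24 h measured 34.2, 35.5 and 38.3 CPM in DMSO, 40.1, 41.5 and 32.4 CPM with i-BET858 and 44.4, 42.1 and 25.3 CPM with i-BET151. In both drugs replicates 1 and 2 lay above DMSO and replicate 3 below it, and the log2 fold changes were 0.04 and 0.03 (SE 0.19 each). The change of effect was 1.03 with i-BET858 (SE 0.23, adjusted p = 0.00243) and 1.07 with i-BET151 (SE 0.23, adjusted p = 0.00457).

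HNRNPAB measured 325, 372 and 325 CPM in DMSO at 24 h, 402, 436 and 415 CPM with i-BET858 and 342, 337 and 327 CPM with i-BET151. The i-BET858 libraries still lay above DMSO, at a log2 fold change of 0.26 (SE 0.09, adjusted p = 0.0356), while those of i-BET151 fell within its range. The change of effect was -0.50 with i-BET858 (SE 0.12, adjusted p = 0.00366) and -0.45 with i-BET151 (SE 0.12, adjusted p = 0.0148).

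HNRNPC, which binds uridine tracts and blocks cryptic exons, measured 965, 794 and 592 CPM in DMSO at 4 h, 1200, 1130 and 759 CPM with i-BET858 and 1080, 1010 and 680 CPM with i-BET151. Replicate 3 was lowest in each group and the groups overlapped, at log2 fold changes of 0.40 and 0.23 (SE 0.22 each) that passed the test only with the block (adjusted p = 9.97e-05 and 0.00964). Both drugs were higher than DMSO in 3 of 3 same-numbered pairs. Its 24 h levels were 865, 876 and 837 CPM in DMSO, 662, 695 and 655 CPM with i-BET858 and 741, 728 and 618 CPM with i-BET151, without overlap with DMSO, and fell by 0.40 (SE 0.09, adjusted p = 0.00422) and by 0.33 (SE 0.09, adjusted p = 0.0152). The change of the i-BET858 effect was -0.75 (SE 0.26, adjusted p = 0.0383), a call lost in 11 of 18 fits that left out a library.

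CLK1 (chr2:200853009-200864691, minus strand), a kinase that also regulates the splicing of its own transcript, rose with i-BET858 at 4 h. It measured 24.5, 33.5 and 16.8 CPM in DMSO, 56.7, 67.7 and 29.4 CPM with i-BET858 and 41.1, 36.2 and 23.2 CPM with i-BET151. Replicate 3 was lowest in each group, so the groups overlapped although i-BET858 was higher than DMSO in 3 of 3 same-numbered pairs, and the log2 fold change was 1.04 (SE 0.33, adjusted p = 0.0312; 1.64e-05 with the block). This call was lost when counts were scaled by library totals, in the fit of all 18 libraries and in 4 of 9 fits that left out a library. After 24 h it stood at 21.1, 23.7 and 7.07 CPM in DMSO, 48.2, 47.5 and 25.4 CPM with i-BET858 and 35.1, 38.5 and 15.1 CPM with i-BET151, with log2 fold changes of 1.19 (SE 0.44, adjusted p = 0.0518) and 0.75 (SE 0.44, adjusted p = 0.22) that passed the test only with the block, as did i-BET151 at 4 h (adjusted p = 0.0182 with the block).

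CLK4, the closest relative of CLK1, measured 8.57, 12.6 and 7.15 CPM in DMSO at 4 h, 7.34, 11.4 and 4.46 CPM with i-BET858 and 10.3, 10.5 and 4.94 CPM with i-BET151, and the groups overlapped. At 24 h it measured 6.27, 5.86 and 2.93 CPM in DMSO, 10.4, 10.3 and 5.7 CPM with i-BET858 and 9.54, 10.3 and 7.86 CPM with i-BET151. All i-BET151 libraries lay above DMSO, whereas those of i-BET858 overlapped with it. The log2 fold changes were 0.775 (SE 0.30, adjusted p = 0.0627, and 0.00258 with the block) with i-BET858 and 0.86 (SE 0.30, adjusted p = 0.0498) with i-BET151, the latter lost in 7 of 9 fits that left out a library.

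CLK2 measured 51.2, 50.6 and 33.9 CPM in DMSO at 4 h, 50.7, 53.8 and 36.9 CPM with i-BET858 and 71.9, 70.2 and 45.4 CPM with i-BET151. The 24 h libraries gave 56.3, 51.7 and 29.1 CPM in DMSO, 66.1, 72.5 and 40.1 CPM with i-BET858 and 68.3, 59.3 and 39.6 CPM with i-BET151. The groups overlapped in all 4 comparisons and none was called without the block, which called all but i-BET858 at 4 h higher.

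CLK3, which shares exonic bases with EDC3 on the opposite strand, measured 25.3, 28.9 and 27.5 CPM in DMSO at 4 h, 21.7, 23 and 18.6 CPM with i-BET858 and 30, 34.2 and 31.7 CPM with i-BET151. The i-BET858 libraries lay below DMSO and those of i-BET151 above it without overlap, at log2 fold changes of -0.36 (SE 0.14, adjusted p = 0.064) and 0.23 (SE 0.14, adjusted p = 0.295) that did not pass the test, although the block called the first (adjusted p = 0.0163). Its 24 h levels were 27.3, 29 and 21.2 CPM in DMSO, 29.7, 32.6 and 28.1 CPM with i-BET858 and 28.7, 28.2 and 27.8 CPM with i-BET151. The change of the i-BET858 effect was 0.59 (SE 0.18, adjusted p = 0.0235), a call lost with replicates 1 and 2 only, without a filter on low counts, in the fit of the compared groups alone and in 4 of 18 fits that left out a library (adjusted p up to 0.0737).

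**Figure D4:**
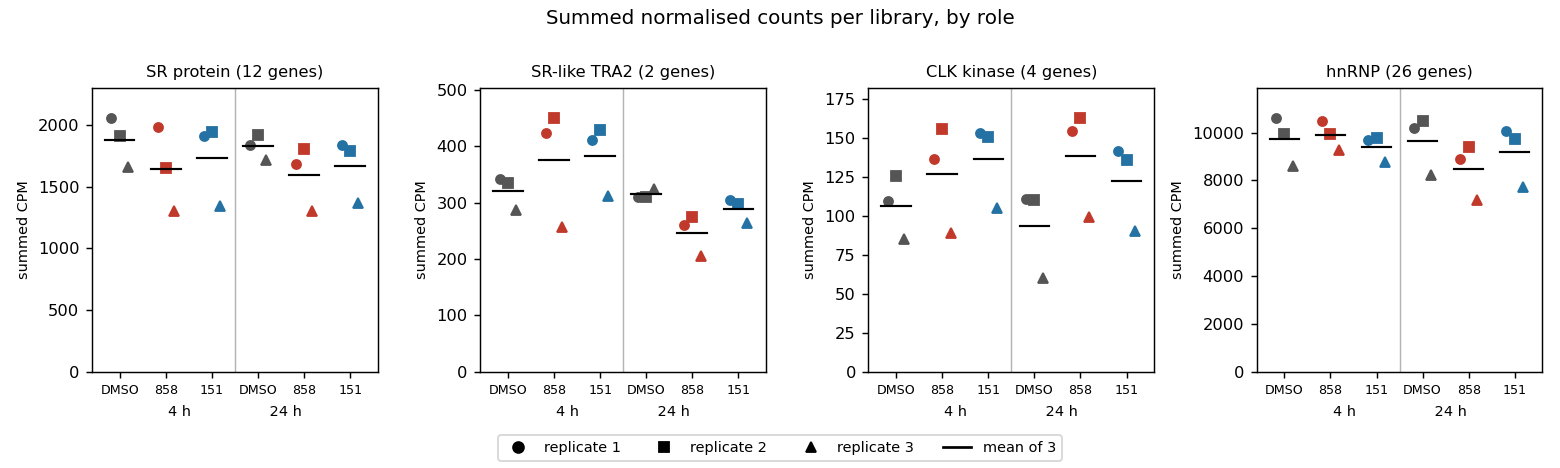
Summed level (CPM, TMM-scaled) of the members of each role in the 18 libraries, with symbols for the replicate number and bars for the mean of 3; the y axes start at 0 and differ in scale. Replicate 3 is the lowest of its group throughout except for the TRA2 genes in DMSO at 24 h, and the 4 CLK kinases sum to 154.4, 162.9 and 99.27 CPM with i-BET858 at 24 h against 111.1, 110.3 and 60.33 CPM in DMSO.

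TRA2A and TRA2B, SR-like activators of exons rich in GAA repeats, did not pass the test at 4 h with either drug without the block, which called TRA2A higher with both (adjusted p = 0.00271 and 0.0105). TRA2A measured 73.8, 75.5 and 50 CPM in DMSO at 4 h, 107, 113 and 55.1 CPM with i-BET858 and 104, 104 and 56.4 CPM with i-BET151, and its replicate 3 libraries lay apart in each group. After 24 h it stood at 68.3, 68 and 63.8 CPM in DMSO, 62.4, 67.7 and 46.7 CPM with i-BET858 and 76.8, 78.7 and 66.3 CPM with i-BET151, again with overlap. TRA2B measured 269, 259 and 237 CPM in DMSO at 4 h, 316, 337 and 202 CPM with i-BET858 and 307, 326 and 255 CPM with i-BET151. The 24 h libraries gave 241, 242 and 261 CPM in DMSO, 198, 206 and 160 CPM with i-BET858 and 228, 219 and 198 CPM with i-BET151. All i-BET858 libraries lay below DMSO at 24 h, and TRA2B fell by 0.44 on the log2 scale (SE 0.11, adjusted p = 0.00952), while the change with i-BET151 was -0.23 (SE 0.11, adjusted p = 0.145).

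Of the hnRNPs, HNRNPA1, HNRNPA2B1, HNRNPA3, HNRNPH1, HNRNPH3, HNRNPK, HNRNPM, HNRNPR and HNRNPUL1 were called in none of the 4 comparisons with DMSO without the block, nor were HNRNPA1L2 and HNRNPA1L3, near-identical copies of HNRNPA1 whose reads cannot be assigned with certainty. With i-BET858 at 24 h, HNRNPA3 had a log2 fold change of -0.63 (SE 0.29) and HNRNPA2B1 one of -0.49 (SE 0.32), and both were lower in 3 of 3 same-numbered pairs and called with the block (adjusted p = 2.98e-05 and 5.82e-05). HNRNPA3 shares 3583 exonic bases with MIR4444-1 and, on the opposite strand, NFE2L2. HNRNPA2B1 shares 1575 with CBX3 and NFE2L3 on the opposite strand. HNRNPK was measured more tightly, at 0.05 (SE 0.09) and -0.20 (SE 0.08) with i-BET858 at 4 and 24 h, the latter called only with the block (adjusted p = 0.0204). In all, 19 of the 40 tested members were called in none of the 4 comparisons without the block. With it, all of these but SRSF9 and HNRNPA1L2 were called at least once. The shares of all genes called in none or in all 4 were not computed, so such counts have no background here.

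In DMSO alone, no member differed between 24 and 4 h by edgeR or DESeq2, as 0.0386% of all genes did, and 3 members had an unadjusted p under 0.05. These were CLK4 at a log2 change of -0.91, SRSF8 at -0.34 and HNRNPAB at -0.18. With the block CLK1 and CLK4 were lower at 24 h, 5% of the members against 2.07% of all genes.

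Several of these calls did not hold in every fit that left out a library. The fall of HNRNPDL with i-BET858 at 24 h and of HNRNPC with i-BET151 at 24 h missed the threshold without DMSO replicate 2, at adjusted p = 0.0625 and 0.0536, as did the change of the i-BET151 effect on HNRNPAB, at 0.0566. Without DMSO replicate 1 the rise of HNRNPL at 24 h had an adjusted p of 0.0518. Among the SR proteins, SRSF10 with i-BET858 at 4 h lost its call in 6 of 9 such fits and SRSF7 with i-BET151 at 24 h in 6, with adjusted p up to 0.135 and 0.095. SRSF12 lost it in 5 of 9 fits at 4 h and 2 at 24 h, SRSF3 with i-BET151 in 4 and SRSF4 with i-BET858 at 24 h in 3. Of the hnRNPs, HNRNPH2 lost its call in 5 of 9 fits, HNRNPLL at 24 h and HNRNPUL2 in 4 each, HNRNPU and HNRNPAB at 24 h in 3 each and HNRNPD with i-BET151 in 2. Scaling by library totals also ended the calls of HNRNPLL and HNRNPAB with i-BET858 at 24 h, of CLK4 and of the change in the HNRNPC effect, and testing without a filter on low counts ended those of HNRNPH2, HNRNPU, SRSF12 at 24 h and HNRNPAB at 24 h and for its changes between times. The fit of all 18 libraries ended those of HNRNPC at 24 h with both drugs, HNRNPL with i-BET858 at 24 h, SRSF7 and CLK4 with i-BET151 at 24 h and HNRNPH2 with i-BET858 at 4 h. Fits of the compared groups alone ended those of HNRNPH2 and HNRNPU with i-BET858 at 4 h, SRSF1 with i-BET151 at 4 h and HNRNPAB with i-BET858 at 24 h, and DESeq2 size factors that of CLK4. The calls of SRSF8 and HNRNPLL at 4 h with both drugs, of HNRNPAB at 4 h, of HNRNPF at 24 h and of SRSF4 at 4 h with i-BET858 held without any single library.

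Genes that act beside the members were counted from lists of known splicing genes, against 16.3% of all genes lower and 14.5% higher with i-BET858 at 4 h and 21.3% and 20.5% at 24 h. With i-BET151 these shares were 8.43% and 7.81% at 4 h and 16.6% and 17.2% at 24 h. With the block, 45.4% of all genes were called in either direction with i-BET858 at 4 h and 52% at 24 h, and 32.7% and 45.9% with i-BET151. The list of 19 SR-related coactivators is mixed, with nuclear speckle proteins beside U1-associated and other RNA-processing factors. Of these 19 genes, 11 fell (57.9%) and 1 rose with i-BET858 at 4 h, with a median log2 fold change of -0.47. At 24 h 1 fell (5.26%) and 4 rose (21.1%, at the background), with a median of 0.06. The block gave 14 lower and 1 higher at 4 h (78.9% called, above its background) and 1 lower and 5 higher at 24 h (31.6%, below it). The largest fall at 4 h was that of BUD13, a component of the retention and splicing complex, at -1.71 (SE 0.23, adjusted p = 0.000184), and the largest rise that of SCAF4, at 0.51 (adjusted p = 0.0272). At 24 h the extremes were SRRM2, a speckle scaffold, at 0.95 (SE 0.15, adjusted p = 0.00042), and LUC7L2, a U1-associated factor, at -0.37 (adjusted p = 0.0219). With i-BET151, 3 of the 19 fell (15.8%) and none rose at 4 h, and 1 fell (5.26%) and 3 rose (15.8%) at 24 h, and the block called 57.9% and 26.3%.

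Among 12 SR kinases and related genes outside the CLK family, 6 fell (50%) and 1 rose (8.33%) with i-BET858 at 4 h and 1 fell (8.33%) and 4 rose (33.3%) at 24 h, with medians of -0.30 and 0.21. The block gave 6 lower and 3 higher at 4 h (75%) and 1 lower and 5 higher at 24 h (50%, at its background). With i-BET151, 5 fell (41.7%) and 1 rose (8.33%, at the background) at 4 h, and 1 fell (8.33%) and 4 rose (33.3%) at 24 h. The block gave 6 lower and 1 higher, and 1 lower and 6 higher, 58.3% at each time. DYRK3, a kinase that dissolves nuclear condensates in mitosis, rose at both times, by 2.31 (SE 0.20, adjusted p = 1.19e-05) and 1.23 (SE 0.22, adjusted p = 0.00114) on the log2 scale, and rose with i-BET151 by 1.82 and 0.99. PRPF4B, a spliceosomal kinase, had the largest fall at 4 h, at -1.38 (SE 0.27, adjusted p = 0.00273), and DYRK2 was the 1 gene that fell at 24 h, at -0.46 (SE 0.09, adjusted p = 0.00208).

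For 15 genes of nonsense-mediated decay, 6 fell (40%) and 2 rose (13.3%, near the background) at 4 h of i-BET858 and 2 fell (13.3%) and 6 rose (40%) at 24 h, with medians of -0.33 and 0.16. The block gave 7 lower and 4 higher at 4 h (73.3%) and 2 lower and 6 higher at 24 h (53.3%, at its background). With i-BET151, 2 fell (13.3%) and 1 rose (6.67%, near the background) at 4 h, and 2 fell (13.3%) and 6 rose (40%) at 24 h, and the block called 66.7% and 60%. EIF4A3, a core protein of the exon junction complex, rose at 4 h by 1.65 (SE 0.13, adjusted p = 7.38e-06), SMG9 fell by 1.39 (SE 0.29, adjusted p = 0.00342), and at 24 h SMG6, the endonuclease of the pathway, rose by 0.965 (SE 0.12, adjusted p = 9.29e-05). MAGOHB, another exon junction protein, fell at 24 h by 2.06 (SE 0.16, adjusted p = 4.17e-06) with i-BET858 and by 1.39 with i-BET151.

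The list of 42 other splicing regulators, 41 of them tested, gave 12 falls (29.3%) and 6 rises (14.6%, at the background) at 4 h and 11 falls (26.8%) and 6 rises (14.6%) at 24 h with i-BET858, with medians of -0.17 and -0.01. The block gave 17 lower and 10 higher at 4 h (65.9%) and 13 lower and 12 higher at 24 h (61%). With i-BET151, 6 fell (14.6%) and 3 rose (7.32%, near the background) at 4 h and 9 fell (22%) and 5 rose (12.2%) at 24 h, and the block called 43.9% and 56.1%. MSI1, an RNA-binding protein of progenitor cells, fell at both times, by 1.16 (SE 0.28, adjusted p = 0.00788) and 2.56 (SE 0.27, adjusted p = 3.26e-05), and KHDRBS3, a STAR family splicing factor, rose by 2.49 (SE 0.34, adjusted p = 0.00024) and 1.36 (SE 0.17, adjusted p = 0.000102). In the core of the U1 and U2 particles with U2AF, 5 of 24 genes fell (20.8%) and 2 rose (8.33%) at 4 h of i-BET858, with SF3B3 at -0.71 (adjusted p = 0.0105) and SF3B5 at 0.43 (adjusted p = 0.027), and 8 of 25 fell (32%) and 1 rose (4%) at 24 h, with U2SURP at -0.73 (adjusted p = 0.0088) and SNRNP70 at 0.31 (adjusted p = 0.0471). The block gave 7 lower and 3 higher at 4 h (41.7%) and 12 lower and 1 higher at 24 h (52%), shares below and at its background. With i-BET151, 1 fell (4.17%) and none rose at 4 h and 6 fell (24%) and none rose at 24 h. The block called 25%, below its background, and 44%, near it.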

How the data were processed

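Gene expression in OVCAR-3 cells was measured by sequencing of polyadenylated RNA in 18 libraries, 3 replicates for each treatment and time. Per the study's methods, the authors aligned reads to GRCh38 with STAR, counted reads per gene with it and deposited raw and processed data. The processed values used here are gene counts. The annotation release, strandedness and versions are not given in the sources used here. Column names gave treatment and replicate, and the table's name gave the time point. Symbols were matched by gene identifier to GENCODE 44 (58472 genes, 99.4%).

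Counts were normalised with TMM and tested with edgeR 4.0.16 (quasi-likelihood, filterByExpr, R 4.3.3), fitting the 3 groups of a time together and all 18 libraries for changes between times, with Benjamini-Hochberg adjustment over all genes tested and a threshold of 0.05. CPM and RPKM were computed here from the deposited counts. Intervals are at the 95% level, and floors of 3 counts cover counting error only. Alternatives were DESeq2 1.42.0, other scaling, filters, thresholds and groups, each library left out, replicates 1 and 2 only, and a replicate block.

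Same-numbered libraries deviated together: correlations of their deviations were 0.125 to 0.344 at 4 h (median 0.274) and 0.145 to 0.33 at 24 h (median 0.263). Between libraries of different numbers they were -0.311 to 0.216 at 4 h (median -0.204) and -0.304 to 0.285 at 24 h (median -0.232). The ranges overlap and the medians differ in sign. Replicate 3 stood apart in every group, and its part in this difference was not tested. Taking the numbers to pair the libraries is therefore an assumption, above all for replicates 1 and 2. The members and lists were chosen with earlier results of these data known. Values in every library are given for the CLK and TRA2 genes, for the 4 largest called rises and falls with i-BET858 at each time and for members that differed between drugs or times, with further members given where a result turned on them, after their values were seen. From each list of other splicing genes the called genes with the largest rise and fall are named.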

Additional observations from a re-analysis of the deposited data

Results flagged for a closer look

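These results are given because an effect differed between conditions in a test of the difference itself. SRSF4 was lower with i-BET858 than with i-BET151 at 4 h by a log2 difference of -0.985. The effect of i-BET858 changed from 4 to 24 h by 1.284 (log2) for HNRNPLL, 1.032 for SRSF8, 0.589 for CLK3, -0.501 for HNRNPAB and -0.752 for HNRNPC. For i-BET151 the same change was 1.251 for HNRNPLL, 1.073 for SRSF8 and -0.454 for HNRNPAB. The CLK3 and HNRNPC changes lost their call in 4 and 11 of 18 fits that left out a library, and SRSF4 in 7 of 9. The drugs share DMSO libraries at each time, so their changes are not independent of each other.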

How the results depend on the processing

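Of the 49 called values, 49 kept their call with DESeq2, with a filter of 10 counts in every library and with the replicate block, 48 with DESeq2 size factors, 47 with replicates 1 and 2 only, 43 with total library size, 42 with no filter and 42 with only the groups compared, and 34 of 41 with all 18 libraries at once. No called value changed sign. The cause of the differences below was not tested.

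Counts of members called with i-BET858 at 4 h were 25 with the replicate block, 21 with replicates 1 and 2 only, 23 with the block on replicates 1 and 2 (an alternative chosen after the data were seen), 3 at 2-fold and 8 at 1.5-fold, and 8 to 13 with each library left out. For i-BET151 at 4 h they were 20, 13, 20, 1 and 3 in the same order, and 4 to 7. For i-BET858 at 24 h they were 30, 30, 29, 0 and 6, with 22 without a filter, and 9 to 16. For i-BET151 at 24 h they were 19, 19, 18, 0 and 1, with 3 in the fit of all 18 libraries, and 3 to 6. Between the drugs at 4 h the counts were 3 with DESeq2, 2 with total library size, 2 without a filter, 5 with the block, 5 with the block on replicates 1 and 2, 0 at 2-fold, 0 with only the groups compared, 3 with all 18 libraries and 0 to 1 with a library left out. At 24 h they were 1 with DESeq2, 2 without a filter, 6 with the block, 8 with replicates 1 and 2, 7 with the block on these, and 0 with each library left out. The change of the i-BET858 effect gave 13 without a filter, 9 with the filter of 10 counts, 20 with the block, 19 with replicates 1 and 2, 19 with the block on these, 2 at 2-fold and 3 to 8 with a library left out. That of i-BET151 gave 13, 13 and 11 with the block, replicates 1 and 2 and both, and 2 to 4. In DMSO over time the block gave 2, against 0 with each library left out. Shares of all genes were computed for the main fit, for the block and, against DMSO, at 2-fold. Counts under the other settings have no such share beside them.

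The values that changed sign were all uncalled. They are listed from the 51 uncalled values followed through these settings, and signs of other uncalled values are not listed. CLK2 with i-BET858 at 4 h was -0.095 (log2) with total library size and ranged from -0.113 to 0.209 with a library left out. SRSF8 at 24 h was -0.042 with i-BET858 and total library size, with -0.033 to 0.161 with a library left out, and with i-BET151 -0.009 with the block, with -0.122 to 0.234 with a library left out. CLK3 with i-BET151 at 24 h was -0.025 with replicates 1 and 2 and -0.024 with the block on these. CLK4 with i-BET151 at 4 h was 0.001 with the block on replicates 1 and 2 and -0.316 to 0.137 with a library left out.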
